A study of Mus musculus with 18 samples.

Results

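Testis RNA of mice on a high-fat diet that also received FMT labelled with AOS was compared with testis RNA of mice on the high-fat diet alone. FMT is the usual abbreviation of faecal microbiota transplantation, the transfer of gut microbes from a donor. The name AOS is kept as the labels have it, unexpanded. The members of the comparison were the genes that averaged 1 FPKM or more across the study's 18 libraries, 13105 of 20985 table rows, measured in 3 libraries labelled high-fat diet with AOS 10 mg/kg FMT (HFD-AOSFMT) and 3 labelled high-fat diet (HFD). FPKM counts fragments per length of transcript and per mapped total, so levels of different genes can be set beside each other. All 18 samples are testis of ICR mice, an outbred strain, at 10 weeks of age. The other 12 are 3 each of untreated control, AOS at 10 mg/kg without the diet (AOS), the same diet plus AOS at that dose (HFD-AOS), and the diet with FMT labelled control (HFD-conFMT). The labels do not name the donors, the dosing of the transplant or its timing, and they do not say that replicates came from separate animals. The p-values therefore rest on how far these samples differ among themselves, which may be partly technical. The stated purpose of the series is to study what FMT does in testis damaged by the diet.

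The testis makes sperm inside its tubules, where Sertoli cells nurse germ cells from spermatogonia through meiosis to elongating spermatids, and Leydig cells between the tubules make testosterone from cholesterol. Late germ cells stop transcribing as protamines replace histones on their DNA, and much of their protein is made from stored mRNA. Gut microbes reach this organ only indirectly, through metabolites, bile acids, endotoxin and hormones in the blood. For that reason the gene lists described here cover lipid and sterol synthesis, inflammation, mitochondria and translation beside the testis cell types. The whole-organ RNA sums all these cells, so that fewer cells of a type and less RNA per cell cannot be told apart.

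The 18 libraries summed to 588160 to 637077 FPKM and held 12996 to 13221 genes at 1 FPKM or more. Their absolute depth is unknown, and no counting interval is given. Testis markers were present throughout: the 32 elongating spermatid genes summed to 75890 to 78570 FPKM in HFD-AOSFMT and to 63340 to 78390 FPKM in HFD. The median absolute log2 difference between 2 libraries was 0.0791 to 0.0848 within HFD-AOSFMT, 0.0852 to 0.11 within HFD and 0.0862 to 0.126 between these groups. HFD 2 stood lowest of the 6 in protamine and transition protein transcripts, at 6.54% of its FPKM against 7.95 to 8.46% in the other 5.

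Against HFD, 3 genes were higher in HFD-AOSFMT at an adjusted p under 0.05, and none was lower. That is 0.0229% of the 13105 genes tested in the upward direction and 0% in the downward direction (limma on log2(FPKM + 1), Benjamini-Hochberg adjustment over all genes tested). At an unadjusted p under 0.05 the counts were 686 higher (5.23%) and 601 lower (4.59%). Quantile normalization turned that majority, with 595 higher and 730 lower, and without HFD 2 there were 481 higher and 316 lower. Values of the 3 and 3 libraries did not overlap for 1093 higher genes (8.34%) and 1164 lower genes (8.88%). The median difference over all genes was -0.01 on the log2(FPKM + 1) scale, and the median size of the difference, in either direction, was 0.0682. The 3 genes that rose were Kap, Dgcr6 and Hagh.

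Kap encodes the kidney androgen-regulated protein, one of the most abundant androgen-dependent transcripts of the proximal tubule of mouse kidney. It was listed at 37.7, 31.5 and 36.3 FPKM in the HFD-AOSFMT libraries. In the HFD libraries it was listed at 0, 0 and 0.15 FPKM, and in the 12 libraries of the other 4 groups at 0. The 3 HFD-AOSFMT libraries were thus alike and far above every other library, of which 14 of 15 had no Kap at all. The mean was 35.2 ± 3.27 FPKM (SD, n = 3) against 0.05 ± 0.0866, a difference of 5.11 on the log2(FPKM + 1) scale (SE 0.0759, limma adjusted p = 1.82e-16). The size depends on the pseudocount, and was 8.02 with a pseudocount of 0.1. Kap passed the filter of 1 FPKM only through the HFD-AOSFMT libraries, since the other 15 averaged 0.01 FPKM. Its p-value therefore describes the separation already seen in the values and adds no independent support. The gene lies on chromosome 6, from 133849851 to 133853762 on the minus strand (ENSMUSG00000032758.4, mm10).

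The stretch that precedes the start of Kap is shown because no other gene differed as much. The 30 bases from chr6:133853678-133853707 on the minus strand of GRCm38.p6, the same assembly as mm10, read 5′ to 3′ with a TATAAA box in capitals.
Kap: tacaggatgTATAAAagcccaggaggactc
The capitals lie 31 to 26 bases before the RefSeq start. The letters TATAAA, searched on the gene's strand only within 50 bases before the start, occur in 3.15% of the 27025 genes of the promoter table and in 1.65% of the 10305 tested genes matched to it. The GENCODE model of the gene begins further upstream than the RefSeq start used here. The match describes the sequence and says nothing of what acted on it.

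Other genes known from kidney were then listed, after the values of Kap and some of these genes had been seen, so the counts are a description without a test. All 56 listed genes were in the table, and 46 of them had a mean under 1 FPKM over the 18 libraries. Of these 56, 20 lay higher in all 3 HFD-AOSFMT libraries than in all 3 HFD libraries and 0 lay lower. Over all 20979 rows with a unique symbol those shares were 6.5% and 6.78%. Above all 15 other libraries stood 13 of the 56, which were 11 of 36 proximal tubule genes and 2 of 20 genes of the later tubule, collecting duct and podocyte. Over all rows that share was 0.262%, and over rows with a mean above 0 and under 1 FPKM it was 0.388%.

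Slc34a1, the main sodium-phosphate transporter of the proximal tubule, was at 1.25, 0.84 and 0.81 FPKM in HFD-AOSFMT and at most 0.19 elsewhere. Acsm2, a mitochondrial acyl-CoA synthetase of the same segment, was at 0.51, 0.38 and 0.42 FPKM against at most 0.01. Miox, which begins the breakdown of inositol in kidney, was at 1.49, 1.05 and 1.14 FPKM against at most 0.86. Every one of these genes was thus low in absolute terms, and the 3 libraries of the group carried it alike. Umod, which encodes uromodulin of the thick ascending limb, was at 0.23, 0.2 and 0.38 FPKM against at most 0.08. The others were the transporters Slc22a6 and Slc5a12, the enzymes Cyp2j5, Cyp4b1, Pck1 and Keg1, the regulator Hnf4a, and Calb1, the calcium-binding protein of the distal tubule. Of the 13, Kap alone averaged 1 FPKM or more across the 18 libraries.

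Defining kidney genes did not all share this pattern. Lrp2 and Cubn, the endocytic receptors of the proximal tubule, were at 0.23 to 0.32 and 0.53 to 0.58 FPKM in HFD-AOSFMT, within the range of the other 15 libraries (0.17 to 0.57 and 0.34 to 0.58 FPKM). Aqp2, the water channel of the collecting duct, was at 2.73, 3.64 and 3.79 FPKM against 1.64 to 7.14 elsewhere. Avpr2 and Atp6v1g3 were listed at 0 in all 3 HFD-AOSFMT libraries. Gpx3, a plasma glutathione peroxidase made mainly by the proximal tubule, was at 19.1, 22.1 and 19.5 FPKM, above the HFD values of 9.64, 12.9 and 6.85. It reached 59.4 FPKM in control 3, however, so its level was not peculiar to the group. Summed levels of the 36 proximal tubule genes ran from 514 to 539 FPKM in HFD-AOSFMT and from 464 to 479 FPKM in HFD. In control they ran from 439 to 552 FPKM, so the summed level was not peculiar to the group either. Kap itself made up 31.5 to 37.7 FPKM of the HFD-AOSFMT sums. The sum is mostly Fbp1, which testis also expresses, at 380 to 400 and 373 to 381 FPKM.

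**Figure D1:**
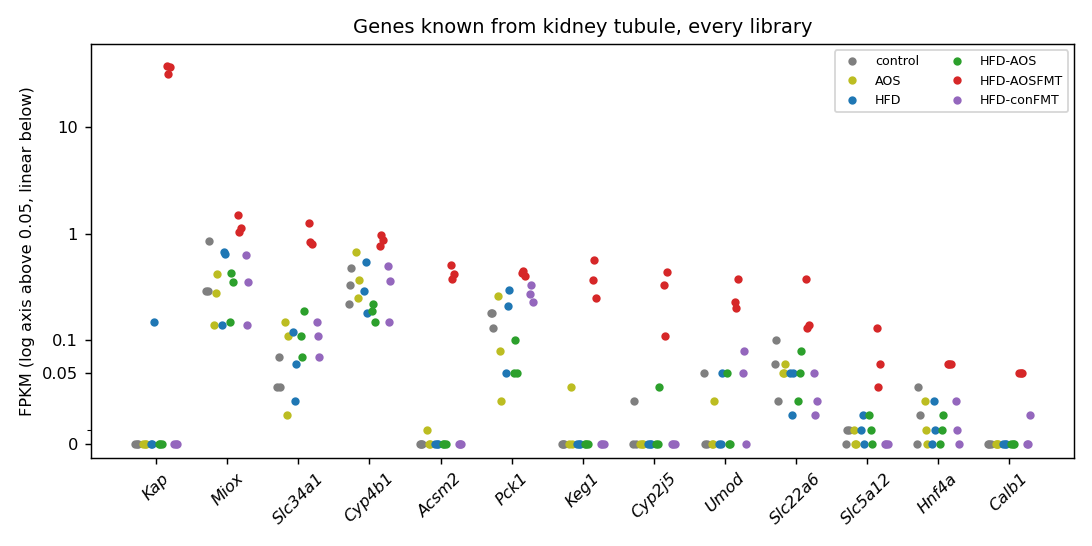
FPKM of the 13 listed kidney genes that stand above all other libraries in HFD-AOSFMT, with 1 point per library, colours for the 6 groups, and an axis that is logarithmic above 0.05 and linear below. The genes were chosen for this pattern: the 3 red points lie above the other 15 in every column, with Kap at 31.5 to 37.7 FPKM and the other 12 between 0.04 and 1.49 FPKM.

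A search of the whole table for the same pattern gave 30 of 20979 rows (0.143%) that lay above all 15 other libraries in HFD-AOSFMT with a mean at least 2-fold that of the others. In the other 5 groups, set in the same way against their own 15 others, 0 to 9 rows did so. Of the 30, 13 were on the kidney lists. The other 17, chosen for this pattern, included Cltrn, a collecting duct and proximal tubule protein that traffics amino acid transporters (0.62, 0.79 and 0.4 FPKM against at most 0.07), the calcium-binding S100g, and Glyat, a glycine conjugation enzyme of liver and kidney. Cyp2a4, which was on the Leydig cell and steroid synthesis list, was also among them, at 0.12, 0.2 and 0.24 FPKM against at most 0.08. Only 5 of the 30 reached a mean of 1 FPKM in the group. With no filter on low values, 20576 genes were tested and 22 were called higher (0.107%) and 4 lower (0.0194%). Of these 26, 16 were among the 30 rows and 7 on the kidney lists, and Kap, Dgcr6 and Hagh were all among them. Whether RNA of another organ had a part in these values was not tested.

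Hagh encodes hydroxyacylglutathione hydrolase, the second enzyme of the glyoxalase pathway that clears methylglyoxal, a by-product of glycolysis. It was at 165, 170 and 166 FPKM in HFD-AOSFMT and at 143, 135 and 146 FPKM in HFD. The libraries did not overlap, and HFD was also below the control libraries at 148 to 151 FPKM. The means were 167 ± 2.6 and 141 ± 5.33 FPKM (SD, n = 3), a rise of 0.24 on the log2 scale (SE 0.0366, limma adjusted p = 0.0394). The gene lies on chromosome 17, from 24840143 to 24864450 (ENSMUSG00000024158.17, mm10).

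Dgcr6 belongs to the region whose human counterpart is lost in DiGeorge syndrome. It was at 75.8, 75.6 and 78.2 FPKM in HFD-AOSFMT and at 66.4, 60.1 and 61.4 FPKM in HFD, again without overlap. It rose by 0.29 on the log2 scale (SE 0.0441, limma adjusted p = 0.0394, means 76.5 ± 1.46 and 62.6 ± 3.37 FPKM, SD, n = 3). The gene lies on chromosome 16, from 18052860 to 18071632 (ENSMUSG00000003531.15, mm10). Both of these calls depended on the analysis. Kap was called in all 31 alternative analyses, Dgcr6 in 11 and Hagh in 9, with adjusted p from 0.00849 to 0.331 for Dgcr6 and from 0.00861 to 0.345 for Hagh. When each of the 18 libraries was left out in turn, Kap was the only call in 12 fits, among them those without HFD 2, without HFD 3 and without any 1 of the HFD-AOSFMT libraries.

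Just short of the threshold, both at an adjusted p of 0.056 in limma, were Pcbd2 and Taf10. Pcbd2, which helps regenerate tetrahydrobiopterin and binds the transcription factor HNF1, was at 3.31, 3.59 and 4.16 FPKM in HFD-AOSFMT and at 1.86, 1.36 and 2.02 in HFD. Taf10, a subunit of the general transcription factor TFIID and of the SAGA complex, was at 131, 142 and 139 FPKM against 117, 103 and 113. Both were named under a rule that asked for no overlap between the groups, so their separation is no finding. Further down, with adjusted p from 0.104 to 0.235, came Higd1a of the mitochondrial inner membrane, Rnaseh2c of ribonuclease H2, the mitochondrial ribosomal protein gene Mrps12, Bri3, Fam89a, Snrpc of the U1 splicing particle and the beta-tubulin Tubb4b. Their differences were 0.16 to 0.38 on the log2 scale. The heat shock co-chaperone Dnajb1 was at 115, 112 and 116 FPKM against 104, 103 and 105, with a difference of 0.135 (SE 0.029, limma adjusted p = 0.265).

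In the downward direction the 12 named genes of smallest p had adjusted p of 0.305 to 0.323 and differences of -0.135 to -0.377. They included Eif4g1, the scaffold of cap-dependent translation initiation, at 87.7, 87.6 and 86.6 FPKM in HFD-AOSFMT and 96.1, 102 and 95.8 in HFD. Serinc2, a serine incorporator family member, was at 4.79, 4.67 and 5.05 FPKM against 7.18, 5.71 and 6.62. The importin gene Kpna3, the centriole gene Cep128, the RNA helicase gene Ddx10 and Tiparp, an ADP-ribosyltransferase induced through the aryl hydrocarbon receptor, were among them as well. Absence of overlap was a condition for naming these 12. None of these genes passed the test.

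**Figure D2:**
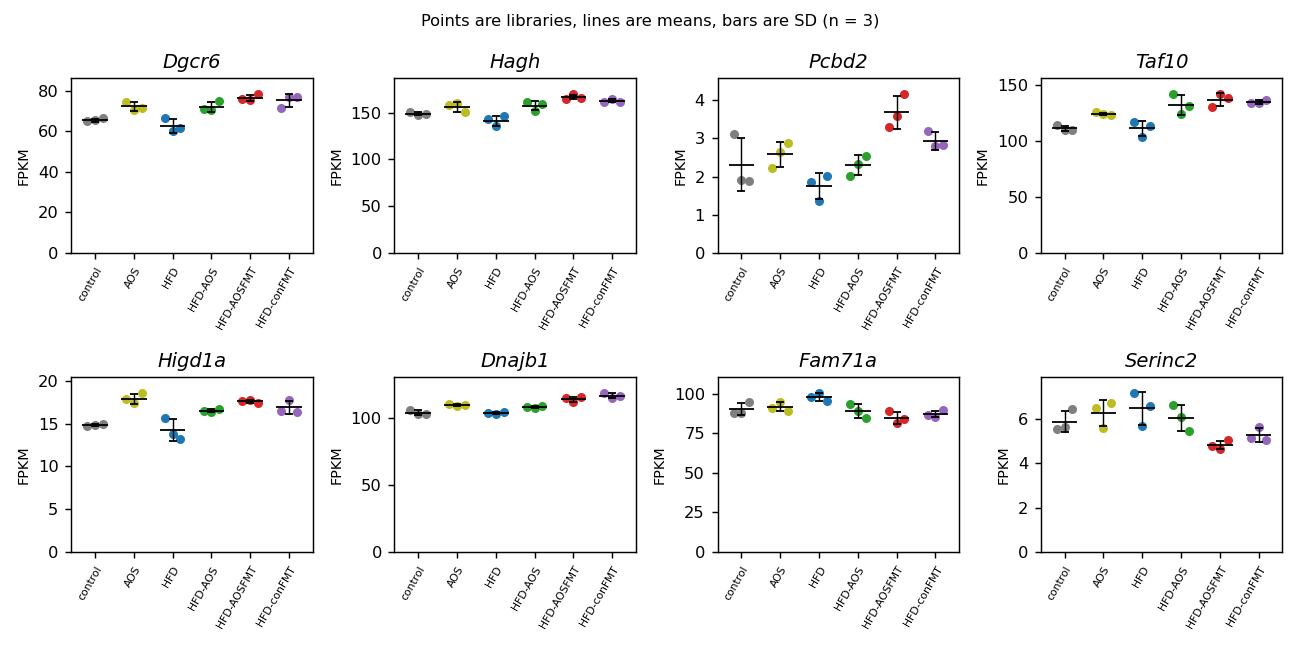
FPKM of 8 genes in every library of the 6 groups, with points for libraries, lines for means and bars for SD (n = 3), each axis starting at 0. The 3 HFD-AOSFMT values lie above the 3 HFD values for Dgcr6, Hagh, Pcbd2, Taf10, Higd1a and Dnajb1 and below them for Fam71a and Serinc2. Absence of overlap was a condition for naming all of these genes but Dnajb1.

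Cytosolic ribosomal protein genes, which code for the protein part of the ribosome, leaned upward as a group. Of 83 tested, 78 were higher in HFD-AOSFMT, with a median difference of 0.12 on the log2 scale against -0.01 over all genes. At an unadjusted p under 0.05 there were 27 higher and 0 lower, where all genes gave 5.23% and 4.59%, and none passed the adjusted threshold (lowest adjusted p = 0.323). In a fit of the 6 compared libraries alone limma called 3 genes, Kap, Gm7980 and the ribosomal protein gene Rpl37, so that Dgcr6 and Hagh were no longer called. Rpl13 was at 448, 457 and 476 FPKM against 423, 382 and 403 in HFD. Rpl27 was at 146, 164 and 160 FPKM against 122, 135 and 133. Rpl11, which also binds the p53 regulator MDM2, was at 351, 379 and 390 FPKM against 324, 278 and 312. These 3 genes had the smallest p of the list, and in all 3 the libraries of the 2 groups did not overlap. Of the 83, 30 were higher without overlap and 0 lower, against 8.34% and 8.88% over all genes. Ribosomal protein genes have many near-identical processed copies, which leaves it uncertain how reads were divided among them.

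The mean of the whole list, as a deviation from each gene's mean over 18 libraries, was -0.01, 0.1 and 0.09 in HFD-AOSFMT and -0.01, -0.1 and -0.09 in HFD. One library of each group was thus level, and the other 2 of each group lay apart. Leaving out any 1 of the 6 libraries gave medians of 0.1 to 0.16 and 71 to 78 members higher. Without HFD 2, 14 members in place of 27 were higher at an unadjusted p under 0.05, and without HFD-AOSFMT 2 there were 17. The count over all genes also fell in these fits, from 686 higher to 481 and 504.

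Many ribosomal protein mRNAs begin with a C followed by a run of pyrimidines at the cap, an element known to tie their translation to growth signalling. The bases around the RefSeq starts of 3 members are shown for this element, 10 before and 15 from the start on, with the run of C and T letters from the start in capitals (GRCm38.p6, 5′ to 3′ on the gene's strand). They were chosen after their values were seen, 2 of the 3 with the smallest p among members with this element and the 1 that was lower.
Rps15a, chr7:118116133-118116157: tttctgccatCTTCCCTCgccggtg
Rpl35a, chr16:33056472-33056496: gcttgccttcCTCTTTCCgccatct
Rps6, chr4:86857353-86857377: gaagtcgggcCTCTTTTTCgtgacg
Their differences were 0.21, 0.17 and -0.3 on the log2 scale. A start of this kind, searched on the gene's strand at the start itself as a C and then 4 letters that are each C or T, was found in 14 of the 62 tested ribosomal protein genes in the promoter table (22.6%), against 3.14% of tested genes. Of the 14, 13 were higher, 6 of them at an unadjusted p under 0.05, beside 78 and 27 of the 83 in the whole list.

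Nuclear genes of the respiratory chain, the mitochondrial complexes that carry electrons to oxygen and make ATP, leaned the same way. Of 80 tested, 74 were higher, with a median of 0.11, and 22 were higher and 0 lower at an unadjusted p under 0.05, which is 27.5% and 0% against 5.23% and 4.59% over all genes. None passed the adjusted threshold. Ndufb9 of complex I was at 111, 117 and 110 FPKM against 100, 103 and 97.3 in HFD. Sdhd, a membrane anchor of complex II, was at 23.7, 24.1 and 23.2 FPKM against 19.6, 20.5 and 19.8. Uqcrc1 of complex III was at 181, 183 and 178 FPKM against 173, 162 and 169. The list's mean deviations were 0.03, 0.06 and 0.09 in HFD-AOSFMT and -0.01, -0.11 and -0.06 in HFD, which do not overlap. Without HFD 2 the count higher at an unadjusted p under 0.05 was 10, and without HFD 3 it was 13. Without HFD-AOSFMT 2 it was 11, and without HFD-AOSFMT 3 it was 9, with 1 member lower. Over all genes the count higher in these fits was 481, 633, 504 and 527 in that order, in place of 686.

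**Figure D3:**
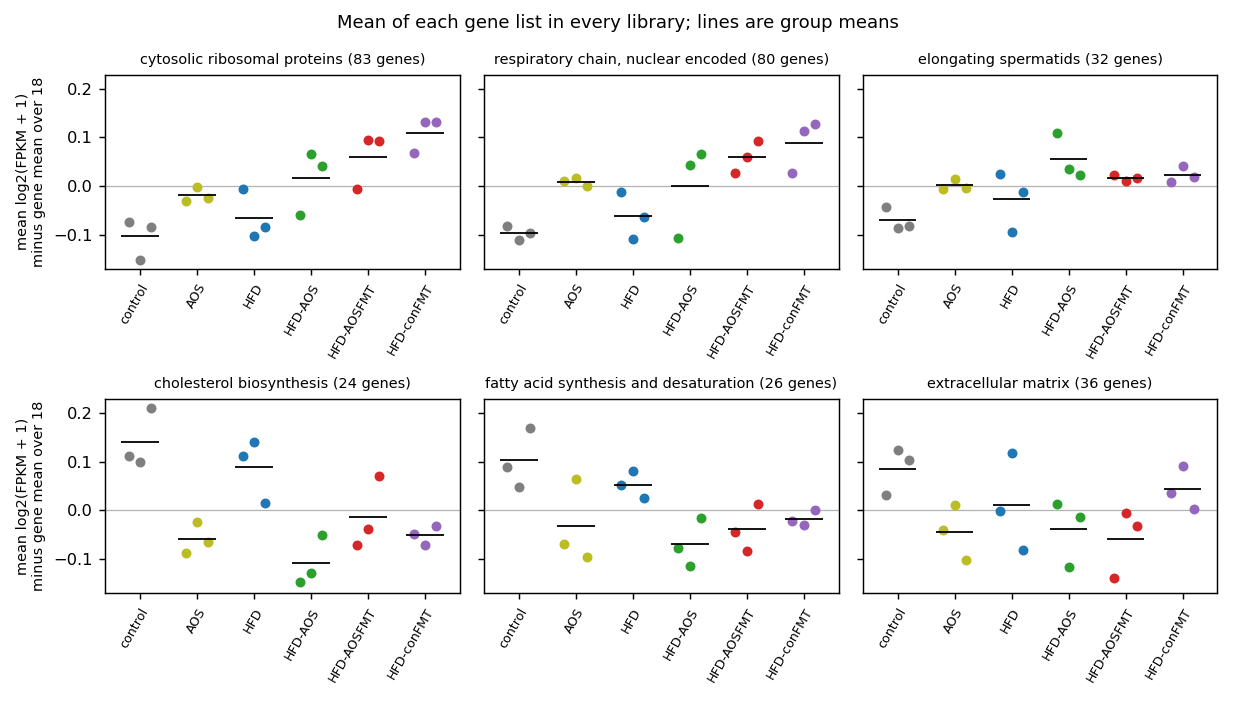
Mean log2(FPKM + 1) of 6 gene lists in every library, as a deviation from each gene's mean over 18 libraries, with points for libraries and lines for group means. Ribosomal protein and respiratory chain means are higher in HFD-AOSFMT than in HFD, though in the first HFD-AOSFMT 1 (-0.006) and HFD 1 (-0.007) are level. Cholesterol, fatty acid and matrix lists are lower on average, with overlap in the first and last of these.

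Both of these lists hold short transcripts, with median lengths of 681 and 651 bases against 1989 over all genes tested. Transcript length itself moved with the comparison. Across 12830 genes the difference between HFD-AOSFMT and HFD had a Spearman correlation of -0.265 with length, given as a description, since genes share the same 6 libraries. The median was 0.05 in the decile of shortest transcripts and -0.05 in the decile of longest. Within each library, the correlation of deviations with length was -0.114, -0.185 and -0.178 in HFD-AOSFMT and -0.0447, 0.221 and 0.113 in HFD, so that the groups lay apart on this measure. After the length trend of each library was removed, 70 of 83 ribosomal protein genes were higher with a median of 0.08, and 68 of 79 respiratory chain genes with a median of 0.08. Under that adjustment 19 of the 83 and 8 of the 79 members had an unadjusted p under 0.05, all higher. Over all 12830 genes the counts were then 573 higher and 523 lower, and Kap was the only gene called.

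**Figure D4:**
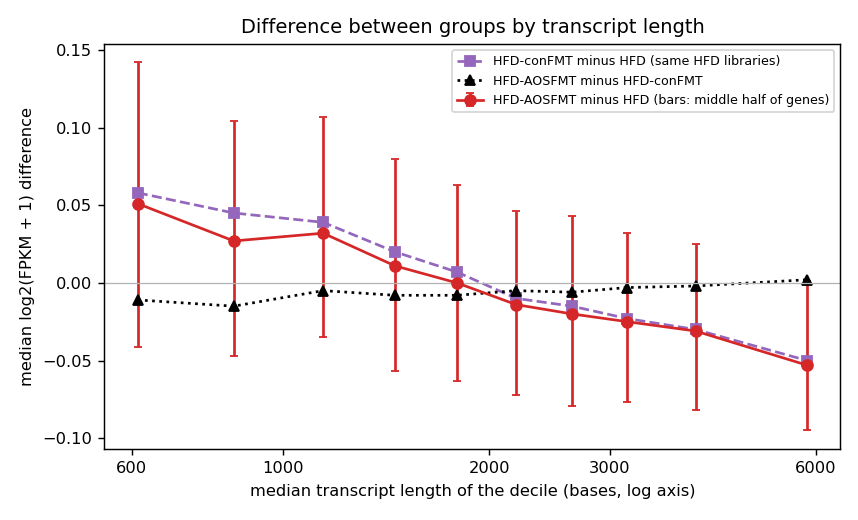
Median log2(FPKM + 1) difference in 10 bins of transcript length, for HFD-AOSFMT minus HFD (circles, bars for the interquartile range of genes), HFD-conFMT minus HFD (squares) and HFD-AOSFMT minus HFD-conFMT (triangles). The first falls from 0.05 in the shortest to -0.05 in the longest bin, and the triangles stay between -0.015 and 0.002.

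Genes of cholesterol biosynthesis lay mostly lower. Of 24 tested, 4 were higher and 20 lower, with a median of -0.1, and 5 were lower at an unadjusted p under 0.05 (20.8%, against 4.59% over all genes). That count was 0 without HFD-AOSFMT 1, 2 without HFD 1 or HFD 2, 3 without HFD-AOSFMT 2, 8 without HFD-AOSFMT 3 and 9 without HFD 3. Over all genes the count lower in these fits ran from 316 without HFD 2 to 670 without HFD 1, in place of 601. No gene of the list passed the adjusted threshold (lowest adjusted p = 0.407). Lss, which closes the sterol ring system, was at 2.62, 2.95 and 3.19 FPKM in HFD-AOSFMT and at 3.73, 3.58 and 3.32 in HFD. Hmgcs1, which makes HMG-CoA, was at 26.7, 26.6 and 29.3 FPKM against 31.6, 33.6 and 29, with 1 library of each group out of order. Hsd17b7, which acts in sterol synthesis and on steroids, was at 1, 1.13 and 1.37 FPKM against 1.66, 1.76 and 1.51. HFD-AOSFMT 3 was the highest of its group in all 3 genes. The list's mean deviations overlapped, at -0.07, -0.04 and 0.07 in HFD-AOSFMT and 0.11, 0.14 and 0.02 in HFD. Leaving out 1 of the 6 libraries gave medians of -0.16 to -0.05, the latter without HFD 2.

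Fatty acid synthesis and desaturation gave 5 higher and 21 lower of 26, with a median of -0.09 and 5 lower at an unadjusted p under 0.05 (19.2%, against 4.59% over all genes). That count was 1 without HFD 1, HFD-AOSFMT 1 or HFD-AOSFMT 2, 2 without HFD 2 and 3 without HFD 3. Over all genes the count lower in these 5 fits was 670, 513, 477, 316 and 669 in that order, in place of 601. Acly, which makes cytosolic acetyl-CoA, was at 12.8, 13.1 and 15.4 FPKM against 15.7, 15.9 and 15.8. Acsl3, an acyl-CoA synthetase of lipid droplets, was at 9.22, 10.6 and 9.23 FPKM against 10.8, 11.2 and 11.5. Neither overlapped, and neither passed the test (limma adjusted p = 0.464 and 0.363). Both were named for a small p. Of the 26, 1 was higher and 8 were lower without overlap, against 8.34% and 8.88% over all genes. The list's mean deviations were -0.04, -0.08 and 0.01 against 0.05, 0.08 and 0.03. Fatty acid uptake and oxidation gave 12 higher and 20 lower of 32, with a median of -0.01 and no member at an unadjusted p under 0.05 in either direction, and 20 higher with a median of 0.015 without HFD 1.

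Germ cell lists lay close to the median of all genes. Of 35 meiotic spermatocyte genes, 11 were higher and 24 lower (median -0.04), with 1 higher and 6 lower at an unadjusted p under 0.05 (2.86% and 17.1%, against 5.23% and 4.59% over all genes). The 6 lower became 3 without HFD 2, HFD 3 or HFD-AOSFMT 3, where the count over all genes went from 601 lower to 316, 669 and 478. Syce3, of the central element of the synaptonemal complex, was at 138, 202 and 191 FPKM against 136, 99.7 and 126 in HFD. Piwil1, the piRNA-binding protein of pachytene cells, was at 109, 106 and 106 FPKM against 117, 121 and 114, and Meioc, which holds cells in meiosis, at 35.8, 36 and 34.7 against 38.9, 42.1 and 38.8. All 3, named for the smallest p of the list, were without overlap, and none passed the test (limma adjusted p = 0.323 to 0.384). Of the 35, 6 were higher and 8 lower without overlap, against 8.34% and 8.88% over all genes. Round spermatid genes had 14 higher of 34 (median -0.02) and spermatogonial genes 4 higher of 16 (median -0.025). The spermatogonial list turned to 11 higher (median 0.015) without HFD 2 and to 9 higher (median 0.008) with the length trend removed.

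Elongating spermatid genes were higher for 24 of 32 (median 0.04), but for 15 of 32 with a median of 0 after quantile normalization and for 17 of 32 without HFD 2. Prm1, the first protamine, was at 14478, 14808 and 15652 FPKM in HFD-AOSFMT and at 14772, 10536 and 15091 FPKM in HFD. Tnp1, a transition protein, was at 8156, 7658 and 7590 FPKM against 7611, 5747 and 8416. In both genes HFD 2 alone was far below the others, and the remaining values of the groups overlapped.

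Leydig cell and steroid genes had 9 higher and 14 lower of 23 (median -0.03). This list had no settled direction: its median was 0.033 with 13 higher without HFD-AOSFMT 1, 0.003 without HFD-AOSFMT 2 or HFD 2, and -0.111 with 6 higher without HFD-AOSFMT 3. Star, which brings cholesterol into mitochondria for steroid synthesis, was at 33.4, 32.6 and 49.8 FPKM in HFD-AOSFMT and 42.6, 53.3 and 46.8 in HFD (limma adjusted p = 0.548). The later steroid enzymes overlapped as well: Cyp11a1 had a difference of -0.08 (SE 0.154), Cyp17a1 of -0.16 (SE 0.131), Hsd3b1 of 0.15 (SE 0.183) and Hsd17b3 of -0.05 (SE 0.158). Insl3, the Leydig cell peptide hormone, was at 3386, 2749 and 3739 FPKM against 3964, 2517 and 2923. At this spread no change of these genes was detected, and the size of change that could have been missed was not computed. None of the 15 tested genes of a panel of well-known testis genes passed the test. Sertoli cell genes had 16 higher of 27 (median 0.03), and 11 higher (median -0.014) without HFD 3. Inha, the inhibin alpha subunit, was at 53.5, 59.5 and 66.4 FPKM against 46.3, 46.4 and 56.8, with overlap.

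Among the supporting cells, macrophage and leukocyte genes had 13 higher of 17 (median 0.11) with none at an unadjusted p under 0.05, and medians of 0.051 to 0.157 when 1 of the 6 libraries was left out. Tyrobp, an adaptor of myeloid receptors named for a small p, was at 4.12, 4.36 and 3.98 FPKM against 2.59, 3.39 and 3.2, higher in all 3 libraries. Of the 17, 3 were higher without overlap and 0 lower, against 8.34% and 8.88% over all genes. Extracellular matrix genes had 6 higher and 30 lower of 36 (median -0.09), with medians of -0.017 (14 higher) without HFD 2 and -0.038 without HFD-AOSFMT 1. At an unadjusted p under 0.05, 1 matrix gene was higher (2.78%) and 3 lower (8.33%), against 5.23% and 4.59% over all genes. None passed the test (lowest limma adjusted p = 0.377). Without overlap, 1 of the 36 was higher and 5 were lower, against 8.34% and 8.88% over all genes. Lum, a collagen-binding proteoglycan named for a small p, was at 1.68, 1.61 and 1.72 FPKM against 1.95, 2.4 and 2.11. Peritubular smooth muscle genes had 2 higher of 11 (median -0.09, and -0.164 to -0.057 when 1 of the 6 libraries was left out). Blood genes could not be read, since Hbb-bs alone ran from 8.47 to 35.5 FPKM within HFD-AOSFMT and from 1.16 to 14.5 FPKM within HFD.

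Stress and immune lists stayed near the median of all genes. The median was 0.02 for 20 interferon response genes, 0.03 for 17 genes of endotoxin sensing and inflammation, -0.01 for 26 apoptosis regulators and -0.03 for 21 genes of endoplasmic reticulum stress. Leaving out 1 of the 6 libraries gave medians of 0.001 to 0.081, -0.029 to 0.057, -0.019 to 0.036 and -0.053 to 0.02 in that order, so that all but the first turned; endoplasmic reticulum stress did so without HFD 2. Antioxidant genes had 22 higher of 36 (median 0.02) and 3 higher at an unadjusted p under 0.05, which is 8.33% and near the 5.23% of all genes, and 2 to 5 when 1 of the 6 libraries was left out. Gpx4, the selenoenzyme that protects sperm lipids and forms part of the sperm midpiece, was at 1425, 1449 and 1447 FPKM against 1335, 1147 and 1301. Prdx5, a mitochondrial peroxiredoxin, was at 97, 105 and 101 FPKM against 93.4, 81.2 and 85.6. Neither gene overlapped, at an adjusted p of 0.384 in limma for both, and both were named for a small p. Of the 36, 7 were higher and 0 lower without overlap, against 8.34% and 8.88% over all genes. Kallikrein genes, which are near-identical to one another with the same uncertainty, had 4 higher of 10 with medians of -0.265 to -0.033 when 1 of the 6 libraries was left out, and Klk1b26 was at 3.26, 1.48 and 4.18 FPKM against 4.82, 5.63 and 9.47.

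**Figure D5:**
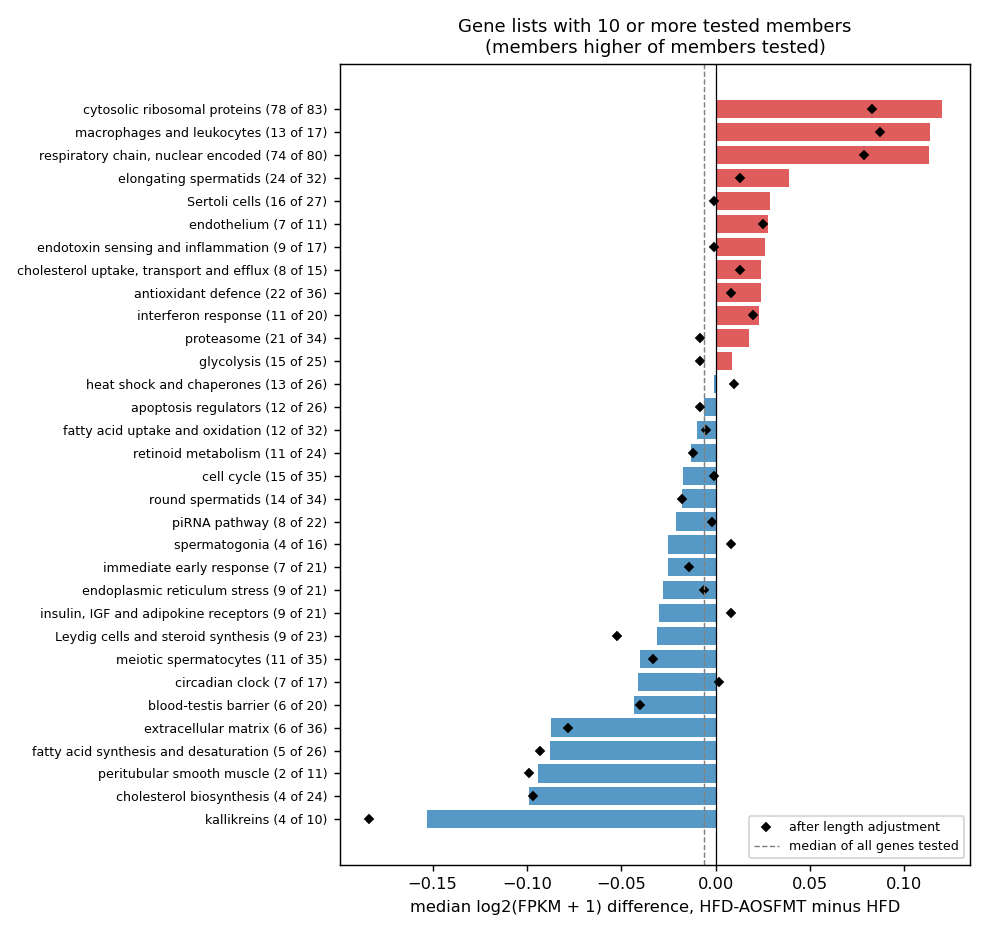
Median log2(FPKM + 1) difference between HFD-AOSFMT and HFD for every gene list with at least 10 tested members, with the number of members higher beside its name, diamonds for the median after removal of the length trend and a dashed line for the median of all genes. Ribosomal protein (0.12), leukocyte (0.11) and respiratory chain genes (0.11) stand highest, and kallikrein (-0.15) and cholesterol synthesis genes (-0.1) lowest.

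The HFD libraries are shared by the comparisons of HFD-conFMT and HFD-AOS with HFD, so their values are only set side by side. Against HFD, the ribosomal protein median was 0.12 in HFD-AOSFMT, 0.18 in HFD-conFMT and 0.06 in HFD-AOS. For the respiratory chain it was 0.11, 0.14 and 0.04, and for cholesterol biosynthesis -0.1, -0.13 and -0.23. Dgcr6 differed from HFD by 0.29, 0.26 and 0.2, Hagh by 0.24, 0.2 and 0.16, and Taf10 by 0.3, 0.28 and 0.25. The number of genes called against HFD was 0 for HFD-conFMT (lowest adjusted p = 0.0651, with 1607 genes at an unadjusted p under 0.05) and 0 for HFD-AOS (lowest adjusted p = 0.159, with 1664 such genes), all in limma.

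What differed between the AOS-labelled and the control-labelled transplant was tested directly. Between HFD-AOSFMT and HFD-conFMT limma called 1 gene, Kap (0.00763% of genes tested), and 0 lower. It differed by 5.17 on the log2(FPKM + 1) scale (SE 0.0759, adjusted p = 1.48e-16) and was listed at 0 in all 3 HFD-conFMT libraries. At an unadjusted p under 0.05, 164 genes were higher (1.25%) and 245 lower (1.87%), so that 40.1% of them were higher, against 51.1% after quantile normalization. With no filter on low values 14 genes were called higher (0.068%) and 2 lower (0.00972%). For Dgcr6 the difference between the transplants was 0.03 (SE 0.0441) and for Hagh 0.04 (SE 0.0366). For the ribosomal protein list the median was -0.05 and for the respiratory chain list -0.02. Eed and Lmna were among the genes of smallest p after Kap, none of which passed, and absence of overlap was a condition for naming them. Eed, a core subunit of the Polycomb complex PRC2, was at 11.2, 11.3 and 12 FPKM in HFD-AOSFMT and 13.7, 14.5 and 14.7 in HFD-conFMT. Lmna, which encodes lamins A and C, was at 9.11, 8.12 and 7.64 against 6.91, 6.17 and 7.06. Fabp4, the fatty acid carrier of fat cells, was at 0.93, 9.76 and 7.15 FPKM against 19.8, 27.4 and 19.1, lower without overlap but not past the adjusted threshold. Of all 13105 genes, 707 were lower without overlap in this comparison. The 7 adipocyte genes tested had a median of -0.02 in HFD-AOSFMT and of 0.58 in HFD-conFMT, each against HFD. The first had no settled direction: leaving out 1 HFD-AOSFMT or HFD library gave medians of -0.218 to 0.31, the latter without HFD-AOSFMT 1. The list's mean deviations were -0.92, 0.1 and 0.02 in HFD-AOSFMT, -0.67, -0.16 and 0.12 in HFD, and 0.53, 0.48 and 0.56 in HFD-conFMT.

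Against HFD-AOS, the diet with AOS itself, limma called Kap as well and no other gene (0.00763% higher, 0% lower, adjusted p = 1.48e-16, again with all 3 HFD-AOS libraries at 0). At an unadjusted p under 0.05, 942 genes were higher (7.19%) and 567 lower (4.33%). The share higher was 62.4%, against 48.5% after quantile normalization and 50.1% after median-of-ratios scaling. With no filter 13 genes were called higher (0.0632%) and 1 lower (0.00486%). Of the genes of smallest p, Gpr3, a receptor that raises cyclic AMP, was at 1.12, 1.3 and 1.28 FPKM against 2.08, 1.92 and 2.2. Usp44, a deubiquitinase of the mitotic checkpoint, was at 109, 110 and 105 against 94.2, 98 and 95.1. Absence of overlap was again a condition for naming both genes. This comparison rested on single libraries: without HFD-AOS 3, limma called 61 genes, 23 higher and 38 lower.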

How the data were processed

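RNA sequencing of whole testis was compared in 6 of 18 libraries. Per the labels' protocols, RNA of frozen testis was isolated with Trizol and then a column kit. The values deposited by the authors, read here as FPKM, were made from reads aligned to mm10 with Bowtie 0.12.2, per the submitters' processing notes. Counting tool, annotation and strand setting were not given in the sources used here. Their table has 20985 rows, and its header names no unit: FPKM was inferred because library sums differ and are not whole.

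Symbols listed more than once (3 symbols, 6 rows) were dropped. Of 20979 symbols, 20219 were matched to GENCODE M21 for coordinates and lengths. The 13105 genes averaging 1 FPKM or more were tested on log2(FPKM + 1), which understates the change of low genes, in 1 limma 3.58.1 model (R 4.3.3) of 6 group means with a mean-variance trend, 12 residual degrees of freedom, two-sided p-values and Benjamini-Hochberg adjustment at 0.05. The script was tested on simulated data. Promoter sequences come from RefSeq (GRCm38.p6).

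Genes and lists were chosen with earlier results of these data known. Named genes were those called, up to 15 in each direction, and the 12 of smallest p in a direction with under 10 calls. Both rules asked for no overlap, 2 FPKM or more in the higher group and no predicted symbol. The same conditions held for the 5 of smallest p in each direction for each comparison with HFD-conFMT and HFD-AOS. Also named were the 3 of smallest p in each of 35 lists and a panel of 16 testis genes. The 2 kidney lists, the genes found in the search for rows above all other libraries and the ribosomal protein genes whose sequences are shown were chosen after values were seen. Alternatives were pseudocounts of 0.1 and 5, filters of none and 5 FPKM, quantile and median-of-ratios scaling, a fit of the compared samples alone, no trend, array weights, a replicate block, each library left out, and, added after seeing the data, removal of each library's length trend and no filter with a pseudocount of 0.1.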

Additional observations from a re-analysis of the deposited data

Results flagged for a closer look

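Kap stood out in the differences between groups. Its difference from HFD was larger in HFD-AOSFMT than in HFD-conFMT by 5.17 on the log2(FPKM + 1) scale, and larger than in HFD-AOS by the same 5.17, each with a limma adjusted p of 1.48e-16. It was higher in 3 of 3 HFD-AOSFMT libraries in both comparisons, and Kap was listed at 0 in every HFD-conFMT and HFD-AOS library. Both comparisons use the same 3 HFD-AOSFMT libraries, and only through these did Kap pass the filter of 1 FPKM. In groups of 3, single libraries were not tested for standing apart.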

How the results depend on the processing

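Kap was called in all 31 alternatives, with differences of 2.99 to 8.02. The 3 genes higher in HFD-AOSFMT than in HFD became 22 with no filter (also with a pseudocount of 0.1), 6 with array weights, and 1 with quantile normalization, median-of-ratios scaling, no trend, without both control 3 and HFD-conFMT 2, or with the length trend removed. The 0 lower genes became 4 with no filter, 5 with no filter and a pseudocount of 0.1, and 1 with array weights or a filter of 5 FPKM. The 1 gene that differed from HFD-conFMT became 16 and 15 in the fits with no filter, and the 1 from HFD-AOS 14 and 17. Leaving out 1 library gave 1 to 5 genes higher, 0 to 1 lower, 1 against HFD-conFMT and 1 to 61 against HFD-AOS (2 without HFD-AOSFMT 2). A fit of the 6 compared libraries alone also called 3 genes higher than HFD, of which 1, Kap, was shared. The cause of these moves was not tested beyond the settings themselves. With the replicate block, 1 gene was higher, 0 were lower, 1 differed from HFD-conFMT and 2 from HFD-AOS. The replicate numbers are no sign of pairing, since deviations of same-numbered libraries correlated at -0.069 to 0.065. Leaving out HFD 2 took the genes at an unadjusted p under 0.05 from 1287 to 797. Of the 35 list medians, 16 moved by more than the spread between libraries in at least 1 alternative. Absolute depth is unknown, and genes near 0 FPKM cannot be read precisely.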
